A study of Gallus gallus with 2 samples.

Results

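Transcript levels of fibroblast growth factor (FGF) ligands, FGF receptors and feedback inhibitors of the pathway were compared in hearts of chicken (Gallus gallus) embryos that received a nitric oxide (NO) donor or its vehicle in the egg. The genes were chosen by symbol: FGF3, FGF8, FGF12, FGF13, FGFR1, FGFR2, FGFR3, SPRY1, SPRY2 and DUSP6. Of these 10 symbols, 9 were found among 16737 genes, and each of these averaged 1 FPKM or more across both libraries. DUSP6 is not used as a symbol in the files, but a gene is listed as MKP3, which is the other name of the DUSP6 phosphatase. Its neighbours bear on that identity: of the 15 named genes within 8 places of MKP3 in the files, 13 are also among the 16 coding genes nearest to DUSP6 in the RefSeq annotation of a later chicken assembly. MKP3 is therefore described beside the 9 genes and is not counted among them.

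Fertilized brown leg horn eggs were kept at 37 °C for 24 h and then injected once through the air sac. The vehicle group received 20 µl of 1X PBS and the other group 20 µl of Spermine NONOate at 10 µM, a donor whose breakdown frees spermine as well as NO; the series has no group given spermine alone. Hearts were removed at 45 h, and the labels leave unclear whether these hours began with incubation or with the injection. A group was represented by a single pool of 10 hearts, sequenced as 1 library, named the vehicle library and the donor library here, so no difference has a replicate check and no test was made.

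FGFs are mostly secreted proteins that bind receptor tyrosine kinases together with heparan sulfate. The receptors signal through adaptors, RAS and the MAP kinase ERK to ETS transcription factors, and this output switches on its own inhibitors, among them the Sprouty proteins and the ERK phosphatase DUSP6. In chick and mouse embryos FGF8 is one of the signals that set up and extend the heart field. A separate branch of the family, the FGF homologous factors, has no secretion signal, stays inside the cell and binds the tails of voltage-gated sodium channels.

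The values were the authors' FPKM, fragments scaled to transcript length and to the mapped fragments of the library, each with a 95% interval. Differences are log2 ratios of FPKM + 1, donor library over vehicle library, with both deposited intervals combined; they understate the difference of genes with low levels. The fragments behind a gene were estimated from the width of its interval, and the vehicle library was the shallower one, with 1 fragment worth 1.63 times more FPKM (median). Intervals cover the estimation of 1 library, not the spread between pools of hearts. Of the 10824 genes that averaged 1 FPKM or more, 9.59% were higher by at least 1.5-fold in the donor library and 22.4% were lower by as much. The deposited intervals of both libraries did not overlap for 70.9% of genes, so intervals that lie apart set a gene off little. The median gene lay at −0.11 on the log2 scale. Genes higher by at least 1.5-fold numbered 1038 against 2420 lower as deposited, and 1432 against 1932 after upper quartile scaling or 1397 against 1955 after trimmed mean scaling.

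Among the 9 FGF genes, 5 were lower by at least 1.5-fold in the donor library, where 22.4% of all genes were. Another 1 was higher by at least 1.5-fold, as were 9.59% of all genes, and the other 3 lay within 1.5-fold. The genes lower were FGF3, FGF12 and all 3 receptors, the gene higher was FGF13, and those within 1.5-fold were FGF8, SPRY1 and SPRY2. The same 5 genes and the same 1 gene were past 2-fold, where 10.3% of all genes were lower and 3.65% higher. The deposited intervals lay apart for 7 of the 9, beside 70.9% of all genes. The median log2 difference of the 9 was −1.09, beside −0.11 for all genes. With MKP3 counted as well, the median of the FGF genes was −0.74. In tissue pools, fewer cells of a type and less RNA per cell cannot be told apart, and this holds for each difference given here.

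**Figure D1:**
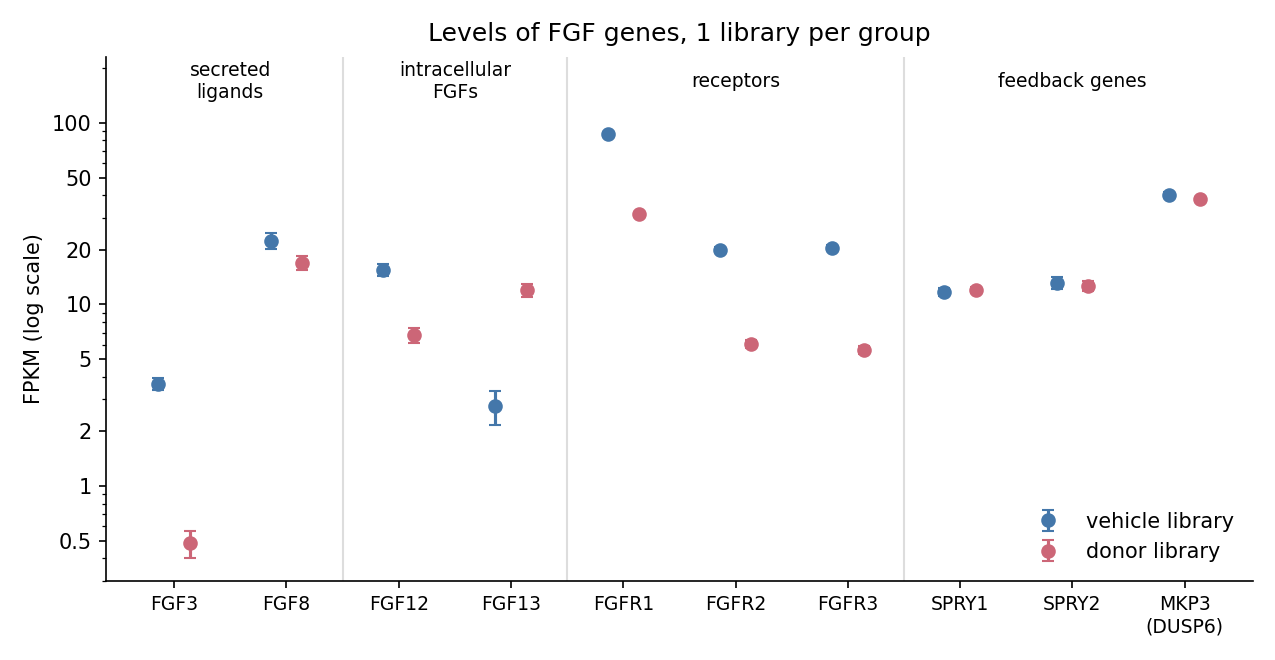
FPKM on a log scale for the 9 FGF genes and MKP3, in the vehicle library (blue) and the donor library (red); bars are the deposited 95% intervals and some are smaller than the points. The 3 receptors and FGF12 sit lower in the donor library, FGF13 sits higher, and the points of SPRY1, SPRY2 and MKP3 are nearly level.

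The secreted ligands FGF8 and FGF3 were both lower in the donor library, by unequal amounts. FGF8, a ligand of the heart field and also of the midbrain-hindbrain boundary, the limb and the tail bud (ENSGALG00000007706, chromosome 6, 22253323 to 22259681; positions are in galGal4), reached 22.5 FPKM (95% interval 20.1 to 24.8) in the vehicle library and 16.96 FPKM (15.4 to 18.5) in the donor library. Its intervals did not overlap, yet its log2 difference of −0.39 (−0.58 to −0.19) was within 1.5-fold, and 3457 of the 10824 genes had a lower one.

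FGF3, a ligand that takes part in otic placode induction in the chick (ENSGALG00000026853, chromosome 5, 16916859 to 16927489), was at 3.65 FPKM (3.38 to 3.92) in the vehicle library and 0.484 FPKM (0.403 to 0.564) in the donor library, with about 743 and 144 fragments. The ratio of these levels was 7.55, which the added pseudocount brings to 3.14-fold lower, a log2 difference of −1.65 (−1.76 to −1.53). In the vehicle library FGF3 was therefore a minor ligand beside FGF8, and in the donor library it was lower than 1 FPKM. FGF8 stood 6.15 times above FGF3 in the vehicle library and 35.1 times above it in the donor library. The log2 differences of FGF8 and FGF3 were 1.26 (1.04 to 1.49) apart; with a pseudocount of 5 FPKM this gap was 0.33, and with 0.1 FPKM it was 2.28.

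FGF8 was the most abundant of the 16 secreted FGFs found in both libraries. It made up 54.1% of their summed 41.6 FPKM in the vehicle library and 53.3% of 31.8 FPKM in the donor library. The share of FGF3 was 8.79% in the vehicle library and 1.52% in the donor library. FGF3 lies within 65.5 kb of FGF4 and FGF19 on chromosome 5. FGF19, a ligand that acts with FGF3 in otic induction in the chick and is listed as Fgf19, was also lower, at 4.12 and 0.988 FPKM (vehicle, then donor), while FGF4 was at 0.200 and 0.0576 FPKM with 2 fragments or fewer.

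The intracellular factors FGF12 and FGF13 differed in opposite directions. FGF12 (ENSGALG00000007219, chromosome 9, 12913816 to 12999648) was at 15.5 FPKM (14.3 to 16.6) in the vehicle library and 6.76 FPKM (6.14 to 7.38) in the donor library, a log2 difference of −1.09 (−1.24 to −0.93). FGF13 (ENSGALG00000006508, chromosome 4, 4730771 to 4781663) was at 2.75 FPKM (2.16 to 3.34) in the vehicle library and 12.0 FPKM (10.98 to 13.0) in the donor library, with about 86 and 557 fragments. Both pairs of intervals lay apart. FGF13 had a log2 difference of 1.79 (1.55 to 2.06), and 115 of 10824 genes had a higher one.

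The order of the pair was thus exchanged: FGF12 was 5.64 times as high as FGF13 in the vehicle library, and FGF13 was 1.78 times as high as FGF12 in the donor library. Their log2 differences were 2.88 (2.59 to 3.19) apart, a gap that ran from 1.93 to 3.27 over the pseudocounts, filters and scalings tried. FGF14, another member of this branch, was also higher in the donor library, at 0.926 and 2.82 FPKM (vehicle, then donor), with a log2 difference of 0.99 (0.61 to 1.41). Summed over the 3 genes the branch was at 19.2 FPKM in the vehicle library and 21.6 FPKM in the donor library. FGF12 was 80.8% of that sum in the vehicle library and 31.3% in the donor library, and FGF13 was 14.3% and 55.6%. As background, FGF12 is the main member in human heart and FGF13 in mouse heart.

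Partners of the intracellular factors were few at these levels. Of the 12 listed sodium channel subunits and JNK scaffolds, 10 were found and 5 averaged 1 FPKM or more. Of these, 1 was higher by at least 1.5-fold and 3 lower by at least 1.5-fold, with a median of −0.59. Among all genes 9.59% were higher and 22.4% lower. The scaffolds MAPK8IP2 and MAPK8IP1, which are rich in neural tissue in mammals, had log2 differences of −1.99 (−2.38 to −1.61) and −1.20 (−1.37 to −1.03). MAPK8IP2 rested on about 117 and 39 fragments (vehicle, then donor). It is annotated only at positions 702 to 1855 of a sequence not placed on a chromosome. SCN2A, SCN3A, SCN4A, SCN8A and SCN4B were under 1 FPKM in both libraries.

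The 3 receptors were lower in the donor library, with FPKM ratios of 2.78 for FGFR1, 3.29 for FGFR2 and 3.65 for FGFR3. FGFR1 (ENSGALG00000003311, chromosome 22, 2331115 to 2345392) was at 87.1 FPKM (84.9 to 89.3) in the vehicle library and 31.3 FPKM (30.4 to 32.3) in the donor library, a log2 difference of −1.45 (−1.50 to −1.39). FGFR2 (ENSGALG00000009495, chromosome 6, 30411293 to 30490016) was at 19.98 FPKM (19.3 to 20.6) in the vehicle library and 6.07 FPKM (5.77 to 6.38) in the donor library, a log2 difference of −1.57 (−1.65 to −1.49). FGFR3 (ENSGALG00000015708, chromosome 4, 82973161 to 83026374) was at 20.6 FPKM (19.9 to 21.2) in the vehicle library and 5.63 FPKM (5.35 to 5.91) in the donor library, a log2 difference of −1.70 (−1.78 to −1.63). None of the 3 pairs of intervals overlapped. By the estimate from interval width, each receptor rested on at least 1629 fragments in either library, more than the ligands. Of all 10824 genes, 458 had a lower difference than FGFR1, 363 than FGFR2 and 277 than FGFR3.

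Summed, the 3 receptors were at 127.7 FPKM in the vehicle library and 43.0 FPKM in the donor library, a ratio of 2.97. The make-up of this sum, which no scaling between libraries can alter, differed less than its size. FGFR1 made up 68.2% (67.5 to 69.0) in the vehicle library and 72.8% (71.9 to 73.7) in the donor library. FGFR2 made up 15.7% (15.1 to 16.2) and 14.1% (13.4 to 14.8), and FGFR3 16.1% (15.6 to 16.6) and 13.1% (12.4 to 13.7), in the same order. FGFR1 was 4.24 times as high as FGFR3 in the vehicle library and 5.57 times as high in the donor library. The log2 differences of FGFR1 and FGFR3 were 0.26 (0.16 to 0.35) apart and those of FGFR1 and FGFR2 0.12 (0.03 to 0.22); with a pseudocount of 5 FPKM both gaps turned sign, to −0.08 and −0.17. FGFR2 and FGFR3 were 0.13 (0.03 to 0.24) apart.

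**Figure D2:**
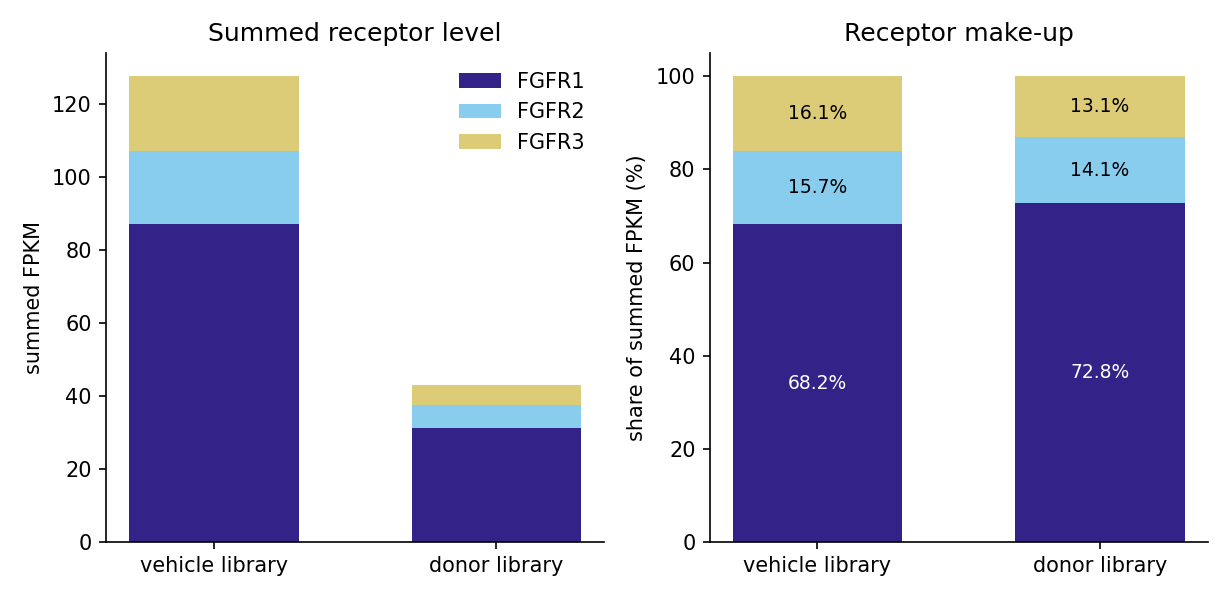
Left, FPKM of FGFR1, FGFR2 and FGFR3 stacked for each library; right, the share of each receptor in the sum, in percent. The stack is 127.7 FPKM high in the vehicle library and 43.0 FPKM in the donor library, while FGFR1 makes up 68.2% and 72.8% of it.

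Of the receptors outside the chosen genes, FGFR4 was at 12.2 and 5.70 FPKM (vehicle, then donor), which gives a log2 difference of −0.98 (−1.12 to −0.85). FGFRL1, a receptor that lacks the kinase domain, was at 13.7 and 12.3 FPKM, with a log2 difference of −0.14 (−0.26 to −0.02). With FGFR4 included, the summed level of the kinase receptors was 139.9 FPKM in the vehicle library and 48.7 FPKM in the donor library. The klotho co-receptors KL and KLB were under 1 FPKM in both libraries.

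The feedback genes SPRY1 and SPRY2 were at nearly equal levels in both libraries. SPRY1, a Sprouty inhibitor of receptor tyrosine kinase signalling (ENSGALG00000011833, chromosome 4, 52775238 to 52982663), was at 11.7 FPKM (11.1 to 12.4) in the vehicle library and 11.99 FPKM (11.5 to 12.5) in the donor library. SPRY2, its paralogue (ENSGALG00000016906, chromosome 1, 151896142 to 151897919), was at 13.1 FPKM (12.1 to 14.2) and 12.7 FPKM (11.9 to 13.5), in the same order. The intervals overlapped for both genes. Their log2 differences were 0.03 (−0.06 to 0.12) and −0.05 (−0.18 to 0.08), and those of the pair were 0.08 (−0.09 to 0.24) apart.

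MKP3, the phosphatase also named DUSP6, which removes the activating phosphates of ERK (ENSGALG00000011207, chromosome 1, 43171637 to 43175978), was at 40.3 FPKM (38.7 to 41.9) in the vehicle library and 37.9 FPKM (36.7 to 39.1) in the donor library. Its intervals overlapped too, its log2 difference was −0.09 (−0.16 to −0.02), and it was 0.04 (−0.11 to 0.19) apart from SPRY2. The sign of these 3 small differences depended on the scaling, which moved SPRY1 from −0.10 to 0.16, SPRY2 from −0.18 to 0.09 and MKP3 from −0.22 to 0.06. Within each library, where scaling cancels, the summed SPRY1 and SPRY2 were 0.195 of the summed 3 receptors in the vehicle library and 0.573 in the donor library.

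Relative to the median gene, at −0.11, FGFR1, FGFR2 and FGFR3 lay at −1.34, −1.46 and −1.59, and FGF3 and FGF12 at −1.54 and −0.98. On the same footing FGF13 lay at 1.90, FGF8 at −0.28, SPRY1 at 0.14, SPRY2 at 0.06 and MKP3 at 0.02.

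**Figure D3:**
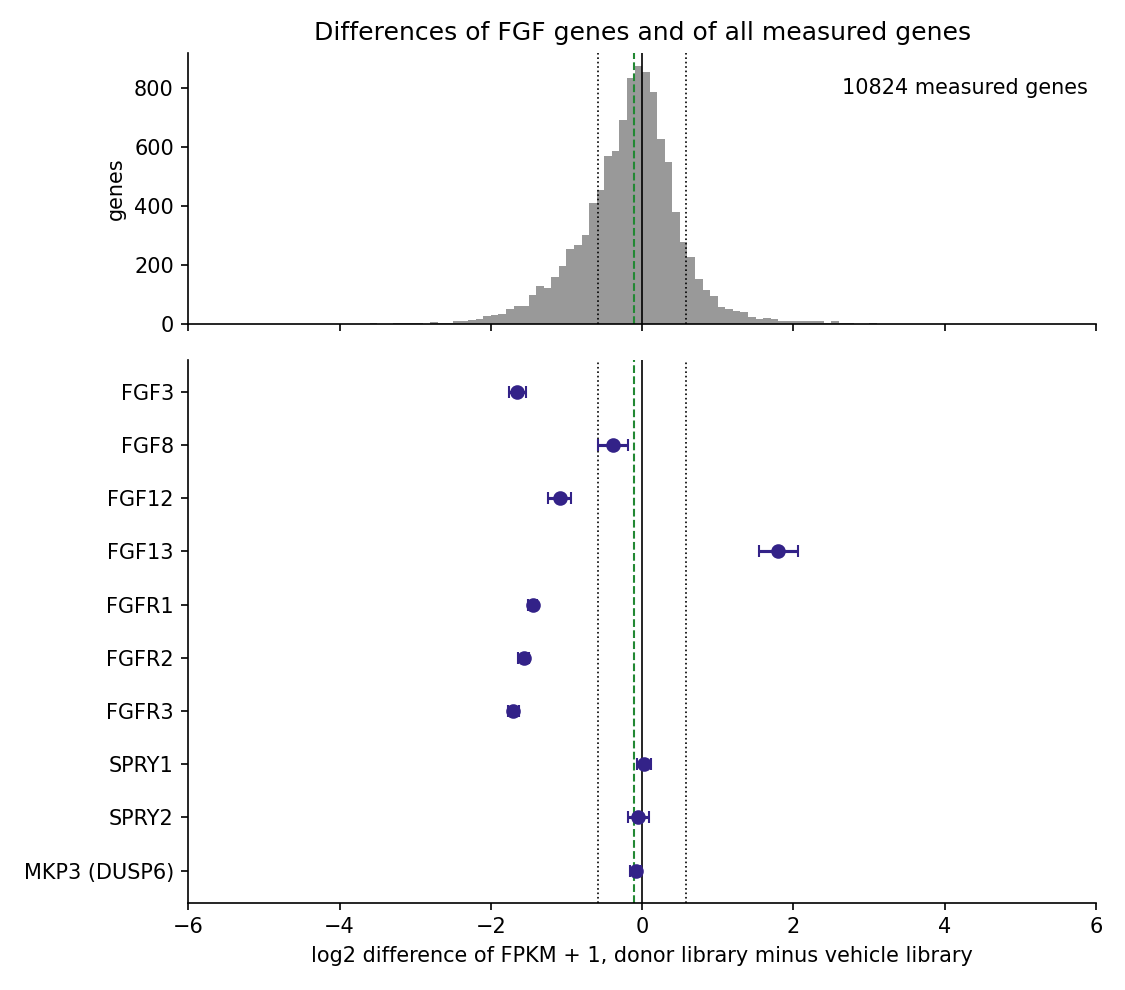
Top, the number of genes by log2 difference of FPKM + 1 (donor library minus vehicle library) for 10824 measured genes; bottom, the 9 FGF genes and MKP3 with their combined 95% intervals. Dotted lines mark 1.5-fold and the dashed line the median gene at −0.11; the 3 receptors, FGF3 and FGF12 lie left of the dotted line, FGF13 lies right of it, and the others lie between.

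The order of the 9 levels differed between the libraries. In the vehicle library it ran FGFR1, FGF8, FGFR3, FGFR2, FGF12, SPRY2, SPRY1, FGF3 and FGF13. In the donor library it ran FGFR1, FGF8, SPRY2, FGF13, SPRY1, FGF12, FGFR2, FGFR3 and FGF3. Neighbours with overlapping intervals, and so not separated, were FGF8 and FGFR3, FGFR3 and FGFR2, and SPRY2 and SPRY1 in the vehicle library. In the donor library they were SPRY2 and FGF13, FGF13 and SPRY1, FGF12 and FGFR2, and FGFR2 and FGFR3. FGFR1 led in both, 3.88 times above FGF8 in the vehicle library and 1.85 times above it in the donor library. By level among all 10824 genes FGFR1 stood at the 93.4th percentile in the vehicle library and the 81.4th in the donor library, and FGF13 at the 15.4th and the 58.5th.

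The wider pathway was described by lists of 97 genes, of which 80 were found and 60 measured; 4 were higher by at least 1.5-fold and 17 lower by at least 1.5-fold, with a median of −0.22. Among all genes 9.59% were higher and 22.4% lower by this measure. The 8 measured feedback genes outside the chosen ones had the lowest median of the lists, at −0.65, close to the −0.59 of the partners of intracellular FGFs. This rank depended on the setting. Where a mean of 5 FPKM was required, the partners had −1.59 and the feedback genes −0.68. Of these 8 feedback genes, 5 were lower by at least 1.5-fold and 0 higher. The list was not one of inhibitors alone, and the 5 were SPRED2, DUSP4, DUSP5, FLRT2 and FLRT3. After upper quartile or trimmed mean scaling 3 of the 8 were lower, beside 1932 and 1955 of all 10824 genes, in the same order. FLRT3, a membrane protein that binds FGF receptors, was at 40.8 and 12.6 FPKM (vehicle, then donor), which gives a log2 difference of −1.62 (−1.72 to −1.52); another annotated gene overlaps it; whether reads were counted by strand is not given in the sources read here. DUSP5 and DUSP4, nuclear phosphatases of ERK, had −1.28 (−1.43 to −1.12) and −0.87 (−1.08 to −0.67). SPRED1 and SPRED2, Sprouty-related inhibitors, had −0.57 (−0.67 to −0.48) and −0.68 (−0.79 to −0.57), whereas IL17RD, a membrane inhibitor of the pathway, and DUSP7 had −0.19 (−0.27 to −0.11) and −0.11 (−0.19 to −0.02).

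**Figure D4:**
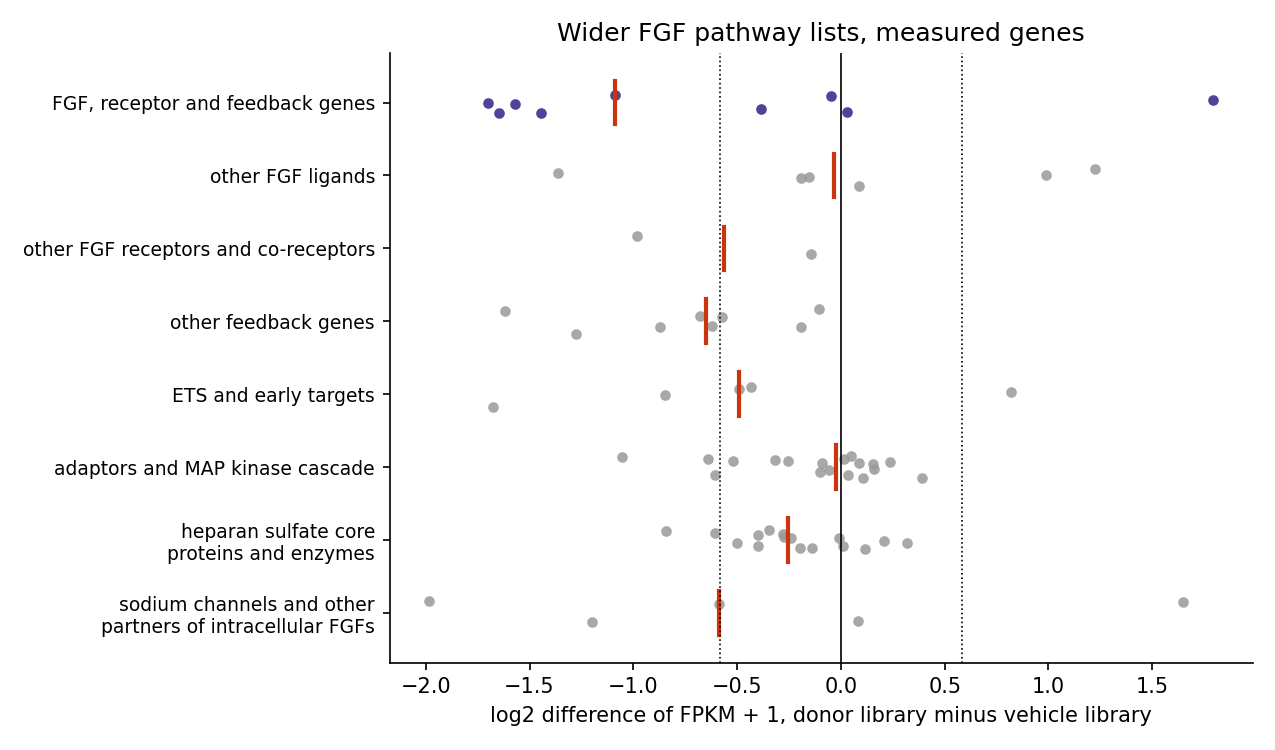
Log2 difference of FPKM + 1 (donor library minus vehicle library) for each measured gene of the 9 FGF genes and of 7 pathway lists. Red bars are medians and dotted lines mark 1.5-fold. The list of other FGF ligands includes the intracellular FGF14. The FGF genes have a median of −1.09 and the adaptors and MAP kinase cascade one of −0.02, with most of the latter between the dotted lines.

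Transcripts of the ETS factors, which are commonly read as outputs of FGF signalling, did not share a direction. ETV4 was at 15.2 FPKM in the vehicle library and 27.6 FPKM in the donor library, a log2 difference of 0.82 (0.73 to 0.91). ETV5, its close relative, was at 16.8 FPKM and 8.87 FPKM, with a log2 difference of −0.85 (−0.93 to −0.77). FOS, an immediate early gene, was lower, with −1.68 (−1.93 to −1.44), and EGR1 had −0.44 (−0.61 to −0.26). Of the 5 measured genes of this list, 1 was higher by at least 1.5-fold and 2 lower, with a median of −0.49. Among all genes 9.59% were higher and 22.4% lower.

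The measured genes between receptor and nucleus had a median near that of all genes. Of 23 listed, 18 were found, and HRAS, NRAS, ARAF, MAPK3 and RASA1 were not. Of 18 measured adaptors and kinases, 0 were higher by at least 1.5-fold and 3 lower, with a median of −0.02. Among all genes 9.59% were higher and 22.4% lower, which applies to each count given here without further scaling. CBLB, a ubiquitin ligase that downregulates receptors, had −1.06 (−1.20 to −0.91), MAP2K2, a kinase that activates ERK, −0.64 (−0.72 to −0.56), and the adaptor SHC1 −0.61 (−0.67 to −0.54). After upper quartile or trimmed mean scaling 1 of the 18 was lower. Of all 10824 genes, 1932 and 1955 were lower under these scalings, in the same order. Of 16 measured heparan sulfate core proteins and enzymes, 0 were higher and 2 lower, with a median of −0.26: the glypican GPC1 had −0.84 (−0.91 to −0.78), and HS3ST1, a sulfotransferase, −0.61 (−0.86 to −0.34). EXTL3, an enzyme that starts the chains, had −0.50 (−0.56 to −0.43).

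The other FGFs were mostly low. Of 16 listed, which include the intracellular FGF14, 15 were found and 6 measured. By at least 1.5-fold, 2 were higher, FGF14 and the secreted FGF22, and 1 was lower. Among all genes 9.59% were higher and 22.4% lower. The median of the 6 was −0.03, with FGF14 counted. FGF22 was at 1.25 FPKM in the vehicle library and 4.25 FPKM in the donor library, a log2 difference of 1.22 (0.66 to 1.92) on about 10 and 59 fragments. FGF10, a ligand of the second heart field in mouse, was at 2.19 and 1.79 FPKM, and FGF18 at 4.27 and 3.74 FPKM, (vehicle, then donor); their log2 differences of −0.19 (−0.53 to 0.16) and −0.15 (−0.50 to 0.22) spanned 0. FGF2, listed as bFGF, was at 2.21 and 2.41 FPKM with about 18 and 33 fragments, and NUDT6 overlaps it. The 9 unmeasured ligands did not pass 0.393 FPKM in either library.

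Summed levels of markers of heart muscle and of other tissues also differed between the libraries, in both directions. Heart muscle markers were present in both libraries, with 8 of 8 found and a summed level of 2359 FPKM in the vehicle library and 15412 FPKM in the donor library. Of these, 7 were higher by at least 1.5-fold, and NKX2-5 was within it, at 80.0 and 95.2 FPKM (vehicle, then donor). Among all genes 9.59% were higher and 22.4% lower by as much. Neural markers, of which 6 of 8 were found, summed to 69.1 and 6.28 FPKM (vehicle, then donor), and 6 of 6 were lower by at least 1.5-fold. Neural crest markers (6 of 8 found, 6 lower) summed to 85.5 and 21.2 FPKM, and endoderm markers (5 of 8 found, 4 lower) to 474 and 88.2 FPKM. Most of the endoderm sum in the vehicle library was TTR, at 400 and 44.2 FPKM, while HHEX was at 42.7 and 40.8 FPKM.

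Somite markers (7 of 8 found, 2 measured, 2 lower) summed to 52.3 and 6.73 FPKM, in the same order, and surface ectoderm markers (8 of 8 found, 7 measured, 6 lower) to 583 and 110.5 FPKM. KRT18 made up most of the ectoderm sum, at 522 and 96.1 FPKM. Endothelial markers (7 of 8 found, 4 higher by at least 1.5-fold) summed to 91.7 and 156 FPKM, and erythroid markers (6 of 8 found, 5 measured, 4 higher) to 283 and 3425 FPKM. No neural, neural crest, endoderm or ectoderm marker that was found was listed at 0 in either library; the somite marker MSGN1 was listed at 0 in the donor library and the globin HBZ in the vehicle library. The receptor sum was 2.97 times lower in the donor library. Any part of the marker sums in the differences of the FGF genes was not tested.

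**Figure D5:**
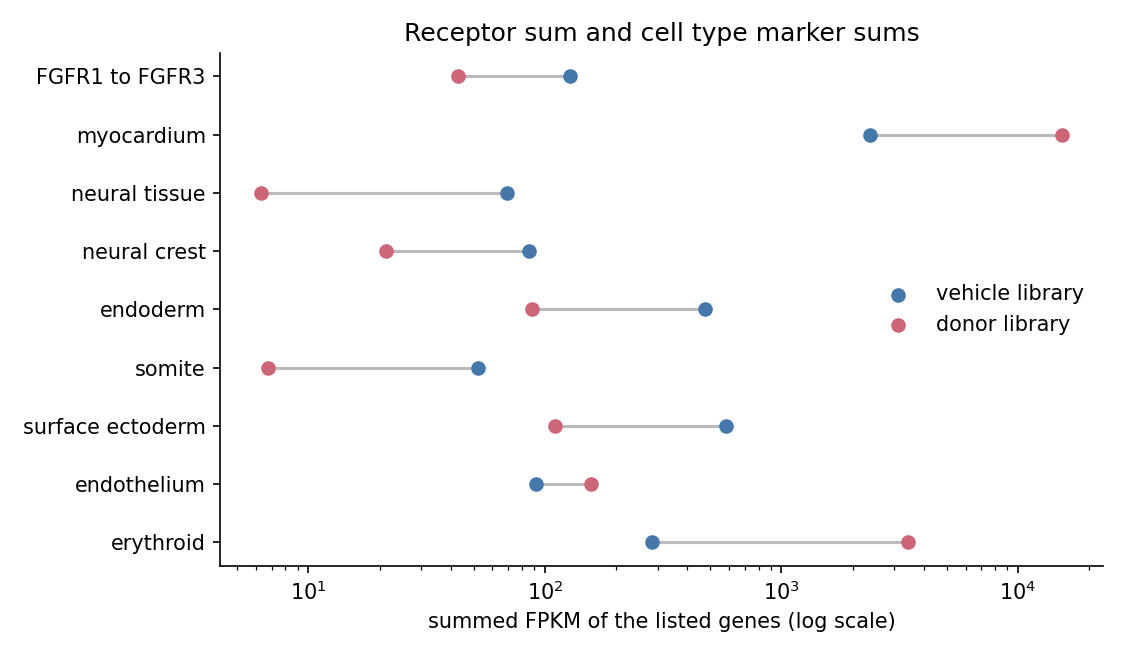
Summed FPKM (log scale) of the 3 FGF receptors and of the found markers of 8 tissues, in the vehicle library (blue) and the donor library (red), joined by a line. Each sum weighs its most abundant genes most, such as TTR for endoderm and KRT18 for ectoderm. The receptor sum, at 127.7 and 43.0 FPKM, lies lower in the donor library together with the neural, neural crest, endoderm, somite and ectoderm sums, while the myocardial, endothelial and erythroid sums lie higher.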

How the data were processed

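Trizol was used for RNA extraction, per the labels' protocols, and an Illumina HiSeq for sequencing. The alignment program was STAR 2.4.2a, the genome galGal4 in Ensembl release 81 and the quantification program Cufflinks 2.2.1, per the series design text. The deposited values are the authors' FPKM with 95% intervals for 17108 rows per library, and no further scaling between libraries is recorded. Summed FPKM was 487268 (vehicle) and 536333 (donor). Starts were read as counted from 0 and are printed counted from 1, since 9 of 11 mitochondrial coding genes then had a length divisible by 3.

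Rows with the same symbol were summed. Genes averaging 1 FPKM or more were kept, and log2 ratios used a pseudocount of 1 FPKM. A Cufflinks interval reaches 2 SD, so fragments were taken as FPKM over that SD, squared. Of genes with under 5, 93.1% and 93.4% lay within 0.02 of a whole number. At higher levels the estimate did not always follow FPKM. TNNT2 was at 604 and 3189 FPKM, with about 2057 and 2336 fragments (vehicle, then donor). A group of 1 library allows no test. Genes were counted at 1.5-fold and at 2-fold. The procedure for the 1.5-fold calls was run on simulated counts with known folds. That run checks the computation only, since the simulated counts held no spread between pools of hearts. Named were all 10 genes and the 3 largest differences of each pathway list; other list members are named where a count or a role calls for it, and were chosen after their values were seen. Some genes that this rule selects are not reported. With 2 libraries, no genes were named for a similar pattern. The genes and lists were chosen with earlier results of these data known. The spellings Fgf9, Fgf19 and bFGF, and MKP3 for DUSP6, were matched after the files were read. Sequences were not used here. Python 3.11.15, numpy 2.4.6 and pandas 2.3.3 were used.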

Additional observations from a re-analysis of the deposited data

How the results depend on the processing

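The count of FGF genes higher by at least 1.5-fold was 1 under 10 other settings and with MKP3 added, and that of lower ones was 5, except 4 where a mean of 5 FPKM was required, which leaves FGF3 out. The log2 difference kept its sign in the settings where it was measured for FGF3, FGF8, FGF12, FGF13 and the 3 receptors, and not for SPRY1, SPRY2 and MKP3. FGF3 ran from −2.68 to −0.66 and FGF13 from 1.13 to 2.09 over the pseudocounts and scalings. The median of the FGF genes was −0.66 with a pseudocount of 5 FPKM, −0.74 at a mean of 5 FPKM, −1.27 with sums made equal, −0.97 with trimmed mean scaling, −0.96 with upper quartile scaling and −0.74 with MKP3, which was added after seeing the data. The median of all genes was −0.24 with sums made equal and 0.020 with upper quartile scaling, and a pseudocount of 5 FPKM left 580 genes higher and 1427 lower. With sums made equal the medians were −0.63 for ETS and early targets, −0.15 for the cascade, −0.40 for heparan sulfate genes, −0.72 for other receptors and −0.84 for other feedback genes. With upper quartile scaling they were −0.35, 0.094, −0.13, −0.43 and −0.54 in the same order, and trimmed mean scaling gave −0.36 for ETS and early targets, −0.13 for heparan sulfate genes and −0.54 for other feedback genes. Other feedback genes had −0.78 with a pseudocount of 0.1 FPKM and −0.43 with 5 FPKM, and other receptors −0.30 without a filter and −0.40 with a pseudocount of 5 FPKM. Partners of intracellular FGFs had −1.59 at a mean of 5 FPKM, −0.011 without a filter and −0.29 with a pseudocount of 5 FPKM, and ETS and early targets −0.67 at a mean of 5 FPKM. Without Fgf19 and bFGF, the list of other FGFs had 0.42, with the intracellular FGF14 counted in it. Apart from the effect of fewer or more genes and of the added constant itself, the cause was not tested. No paired analysis was possible because each group has 1 library. Leaving out a library was not possible for the same reason. Depth limits genes that rest on few fragments, such as FGF22 and FGF2.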

Other observations

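The genes next to the FGF genes on the galGal4 chromosomes gave a view of their surroundings. Of 20 flanking genes of the 9 FGF genes and MKP3, 15 averaged 1 FPKM or more; 2 of these were higher by at least 1.5-fold in the donor library, 2 were lower by as much, and the median was 0.19 on the log2 scale. On both sides of the 3 receptors the flanking genes lay between −0.14 and 0.78, across gaps of 3950 to 329637 bp. FGFR1, FGFR2 and FGFR3 were at −1.45, −1.57 and −1.70. Any part of the surroundings in the differences of the receptors was not tested. These flanking genes were looked at after the values of the FGF genes were known.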
